A study of Mus musculus with 9 samples.

Results

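In m-ICcl2 cells, 219 genes had lower transcript levels 90 h after a pulse of lipopolysaccharide had ended, while their mean levels at the end of the 6 h pulse lay within 0.5 log2 units of unstimulated cells. They were chosen from 9431 genes tested on the array, of 18193 genes with a probe set of their own, and so make up 2.32% of the tested genes. A gene was chosen where its mean log2 level in tolerant minus unstimulated cells was -1.2 or lower, where this difference was below -0.8 in all 3 same-numbered pairs of arrays, and where the mean difference of 6 h LPS and unstimulated cells was below 0.5 in size. Because these differences chose the members, their values in the 3 conditions are a description and carry no test.

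The series holds 9 Affymetrix expression arrays, 3 for each of 3 conditions, labelled as biological replicates of a single line. Tolerant cells received LPS, the endotoxin of Gram-negative bacteria, for 6 h at 100 ng/mL and then stayed 90 h in medium without it, until 96 h after the start. The 6 h LPS cells were harvested at the end of the same pulse, and unstimulated cells received none. All cells were m-ICcl2, a mouse small intestinal epithelial line of C57BL/6 strain, made from fetal tissue, with an SV40 large T antigen transgene that every condition shares. The labels give no time in culture for the unstimulated arrays, so that the later harvest and the earlier LPS cannot be told apart in tolerant cells. What separates the replicates is not stated, and p-values below measure only the spread between these arrays. RNA came from bulk cultures, in which fewer cells with a transcript and less of it per cell cannot be told apart.

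Endotoxin tolerance is the state in which cells that have met LPS respond weakly to it later. LPS is sensed by the receptor TLR4, whose signal through NF-kappaB raises chemokine and cytokine genes within hours. The small intestinal epithelium takes up nutrients through solute carriers and endocytic receptors and works them up in its own peroxisomes, mitochondria and cytosol, and its cells keep contact with a basement membrane and with each other.

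The label of the cells was checked on 9 epithelial markers. Krt8, Krt18, Vil1 and Cdh17 lay at log2 4 or more on all 9 arrays, while Cdh1, Krt19, Cldn3 and Cldn7 lay below log2 4 on all of them, and Epcam reached it on the 3 tolerant arrays alone. All markers of fibroblasts (8), smooth muscle (4), endothelium (4), goblet cells (4) and enteroendocrine cells (6) lay below log2 4 on every array. Of 3 Paneth cell markers Lyz1 and Ang4 lay below log2 4 on all 9 arrays, while Mmp7 averaged 8.68 in tolerant, 4.83 in 6 h LPS and 4.14 in unstimulated cells, and the part of such cells in the members' values was not tested. The deposited intensities crowd near a floor below log2 4, so that a member with all 3 tolerant arrays there has only a bound, written as at least so many fold and computed from its unstimulated mean against log2 4. Arrays of replicate 1 stood apart from those of replicates 2 and 3 in every condition. Without replicate 1, the median difference of the members was -1.36 and the highest -0.91.

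Tolerant minus unstimulated, the members had a median log2 difference of -1.43 (range -3.68 to -1.203), against -0.07 over all tested genes. Of the 191 members with a tolerant array at log2 4 or more, 130 were 2- to 3-fold lower, 43 were 3- to 4-fold lower and 18 were lower by more than that. The other 28 had all 3 tolerant arrays below log2 4, and their bounds ran from 1.10- to 6.12-fold, while ranges and medians of log2 differences use their deposited values. Among the 191, some but not all tolerant arrays lay below log2 4 in 18 members, whose folds thus rest partly on values near the floor. In limma 200 members were called lower, where 12.2% of all tested genes were called lower and 14.0% higher, and with the replicate number as a block 218 were, where 25.9% of all genes were lower and 22.7% higher, but these calls rest on the contrast that chose the members. Every tolerant array lay below every unstimulated array for 214 of the 219 members, against 24.5% of all tested genes, and the exceptions were Pts, Nprl3, Ak1, Ctxn1 and Cnnm2. The limits that chose the members favour this order too. At log2 4 or more on all 9 arrays were 173 members. By textbook function 189 members fell into 13 groups, taken in turn below, and 30 were not placed.

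**Figure D1:**
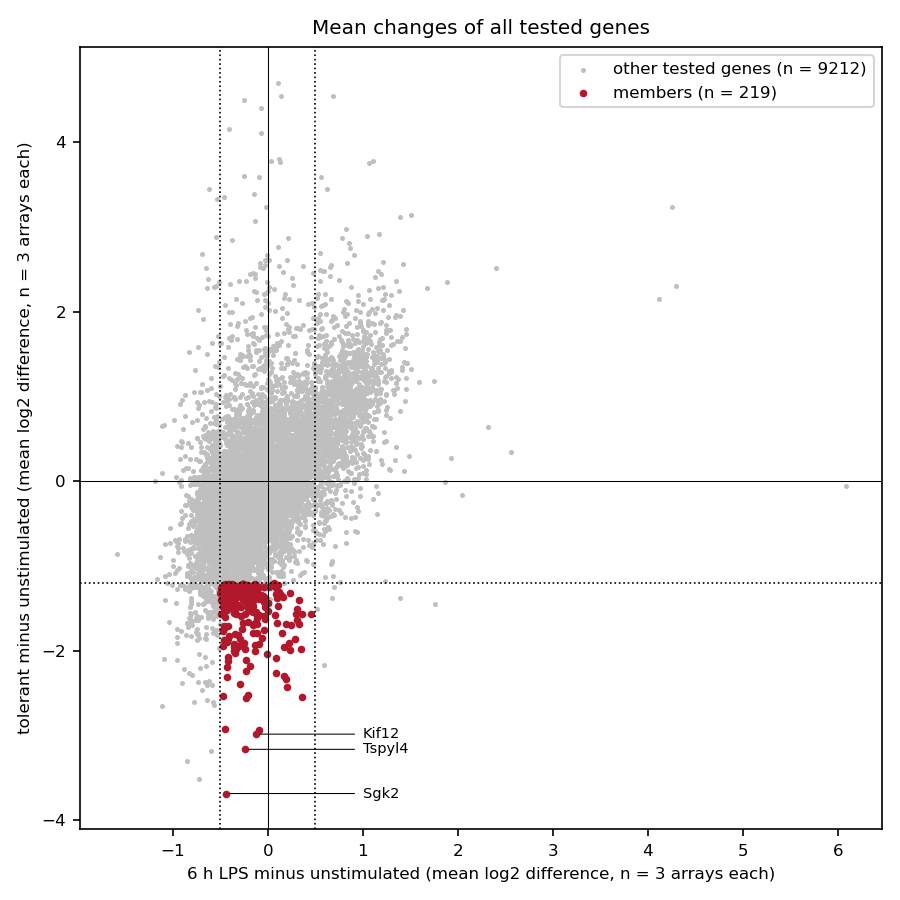
Mean log2 difference of 6 h LPS minus unstimulated cells (x axis) and of tolerant minus unstimulated cells (y axis) for every tested gene, with 3 arrays per condition. The 219 members (red) lie by choice under the dotted line at -1.2 and between the dotted lines at -0.5 and 0.5, with labels on Sgk2 and Tspyl4, whose tolerant arrays all lay below log2 4, and on Kif12, the lowest of the members measured above it.

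**Figure D2:**
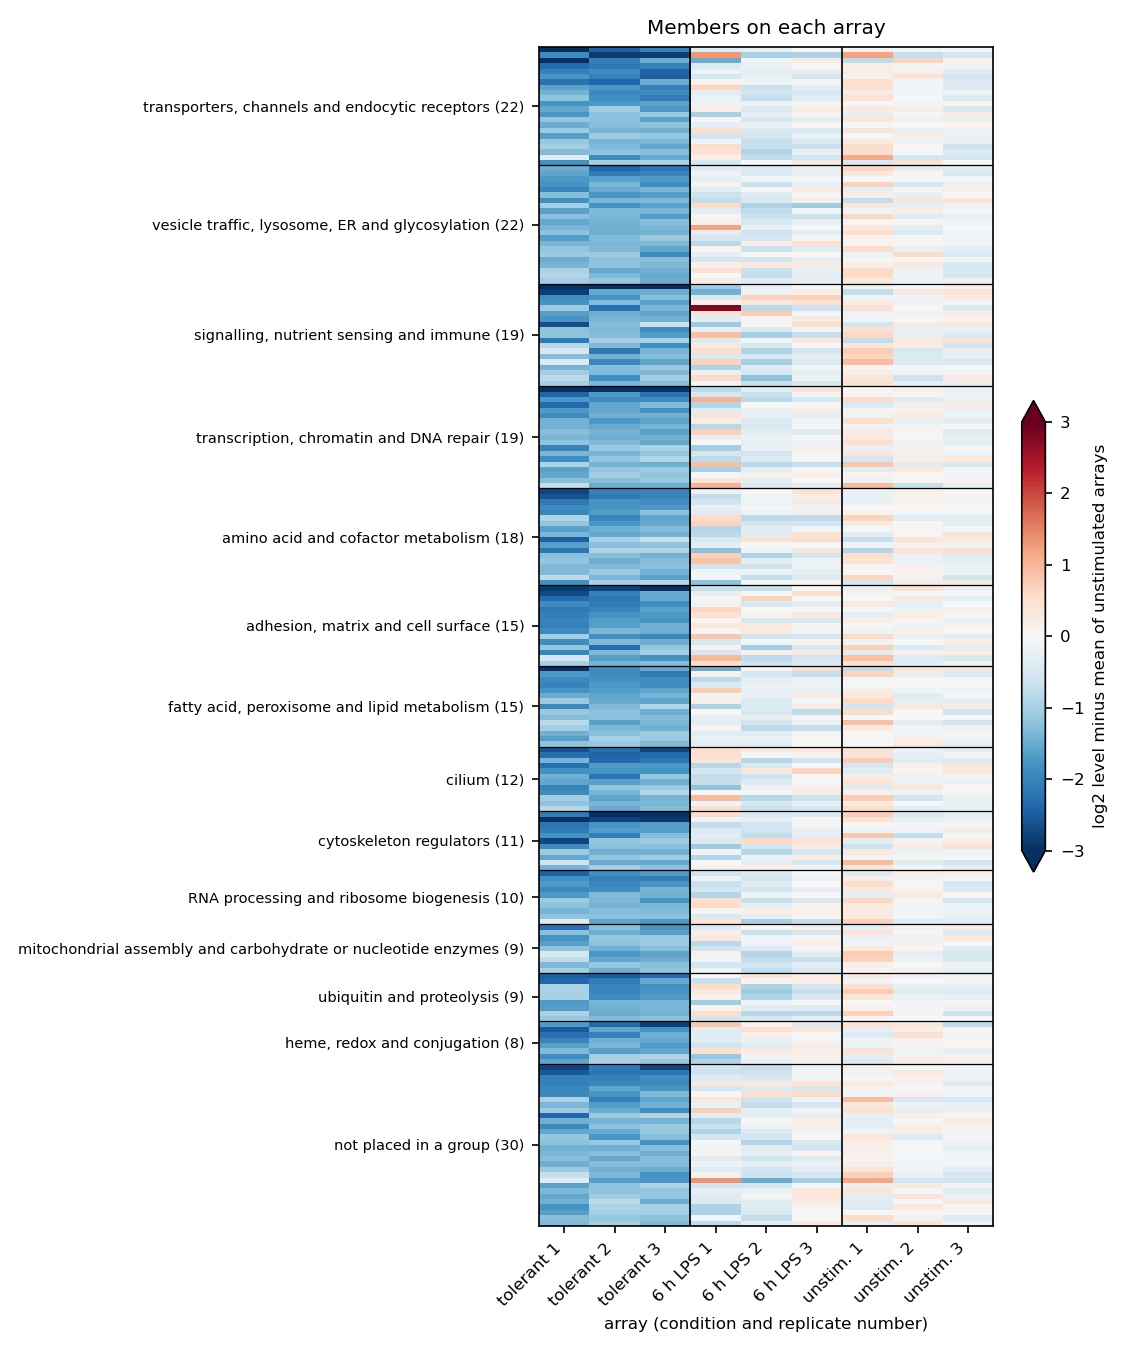
Log2 level of each of the 219 members (rows, by functional group, with the number of members in each) on each of the 9 arrays (columns), minus the mean of its unstimulated arrays. Blue marks lower levels, and tolerant columns are blue across all groups while 6 h LPS and unstimulated columns stay near 0, with replicate 1 above or below replicates 2 and 3 in many rows.

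Cilia, projections built around microtubules that can be motile or, as the primary cilium, a single antenna, accounted for 12 members. Intraflagellar transport carries cargo along the cilium, and the BBSome moves cargo of its membrane. Ttc30b, a subunit of the intraflagellar transport machinery, read 3.31, 3.65 and 3.15 on the tolerant arrays, 6.44, 6.20 and 6.19 on the 6 h LPS arrays and 6.37, 5.73 and 5.64 on the unstimulated arrays. It was at least 3.77-fold lower in tolerant cells, and its probes may also read the near-identical Ttc30a genes. Ttc8, the BBSome subunit also called BBS8, read 5.66, 5.51 and 5.58 on the tolerant arrays, 8.36, 7.91 and 8.03 on the 6 h LPS arrays and 8.29, 7.61 and 7.83 on the unstimulated arrays, which is 5.02-fold lower. All tolerant values of both genes lay below all 6 others, and both genes were slightly above unstimulated cells at 6 h, by 0.36 and 0.19 log2. A further subunit of the BBSome, Bbs2, differed by -1.60.

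Evc and Evc2 encode partners in a complex at the base of the cilium that passes on Hedgehog signals. Evc read 6.46, 5.50 and 5.70 on the tolerant arrays, 8.23, 7.02 and 7.23 on the 6 h LPS arrays and 8.60, 7.54 and 7.40 on the unstimulated arrays. Its level was 3.89-fold lower in tolerant cells, with no overlap with the other conditions, although a further Evc probe set differed by only -0.81. Evc2 read 6.57, 5.89 and 6.10 on the tolerant arrays, 7.91, 6.73 and 6.91 on the 6 h LPS arrays and 7.94, 7.07 and 7.20 on the unstimulated arrays, a difference of -1.22. Its tolerant arrays also lay below the other 6, by a small margin for replicate 1 of tolerant cells and replicate 2 of 6 h LPS cells. Cfap126, which belongs to motile cilia, differed by -1.89 with 1 tolerant array below log2 4. Cilk1, a kinase that sets cilium length, was at least 1.55-fold lower. The rest of the group were Dync2li1, a light intermediate chain of the dynein that returns cargo from the tip, Rabl2, Cplane1, Arl2bp and Foxj1, the master transcription factor of motile cilia, at differences of -1.55 to -1.32.

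Evc and Evc2 lie back to back on chromosome 5 with 1530 bases between them, and Cilk1 lies back to back with another member, the F-box gene Fbxo9, on chromosome 9, with 14 bases between the annotated genes. The start regions of these pairs are shown because both genes of each pair were members. Each window runs from 250 bases before to 50 bases after a RefSeq transcript start (GRCm38.p6), 5′ to 3′ on the strand of the gene. In the Cilk1 window (chr9:78108942-78109241, plus strand) capitals mark the 226 bases that it shares with the opposite-strand window of Fbxo9 (chr9:78109016-78109315). In those of Evc (chr5:37336832-37337131, minus strand) and Evc2 (chr5:37338228-37338527, plus strand) capitals mark matches on either strand to CCAAT, the letters read by NF-Y, to the Sp1-type core GGGCGG and to GGGANTTCC, of the NF-kappaB type.
Cilk1: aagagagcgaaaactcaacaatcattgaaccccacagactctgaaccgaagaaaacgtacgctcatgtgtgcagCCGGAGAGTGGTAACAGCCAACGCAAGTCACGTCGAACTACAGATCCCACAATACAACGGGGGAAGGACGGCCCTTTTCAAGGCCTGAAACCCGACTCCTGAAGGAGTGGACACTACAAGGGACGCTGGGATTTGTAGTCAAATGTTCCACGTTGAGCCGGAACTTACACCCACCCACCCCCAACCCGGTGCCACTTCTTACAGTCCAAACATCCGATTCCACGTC
Evc: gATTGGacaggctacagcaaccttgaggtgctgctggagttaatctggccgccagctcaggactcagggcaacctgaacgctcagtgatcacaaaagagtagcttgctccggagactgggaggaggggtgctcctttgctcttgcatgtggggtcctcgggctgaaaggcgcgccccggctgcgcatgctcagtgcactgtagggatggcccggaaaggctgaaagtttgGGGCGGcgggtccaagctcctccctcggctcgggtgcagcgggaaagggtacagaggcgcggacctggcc
Evc2: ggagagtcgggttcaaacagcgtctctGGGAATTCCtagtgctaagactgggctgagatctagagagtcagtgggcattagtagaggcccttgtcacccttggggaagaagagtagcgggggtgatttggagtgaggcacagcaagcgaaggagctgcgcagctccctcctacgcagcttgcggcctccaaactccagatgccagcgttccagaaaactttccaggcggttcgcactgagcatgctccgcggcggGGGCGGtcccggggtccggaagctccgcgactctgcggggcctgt

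The windows of Evc and Evc2 each hold GGGCGG. Among the 176 members with a window 56.3% hold it, against 68.2% of the 7769 tested genes with one. A match is a stretch of letters and says nothing about binding.

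Other genes of a list of intraflagellar transport and cilium genes were not chosen by the limits for members and can be tested. This list and those below were, however, chosen with earlier results of these data known, which the p-values do not take into account. Of the 44 other tested genes of the cilium list limma called 17 (38.6%) lower and 0 higher in tolerant cells, against 12.2% and 14.0% of all tested genes. With the replicate block, where 25.9% of all genes were lower and 22.7% higher, these counts were 27 and 1. On replicates 2 and 3 alone, where 19.7% of all genes were lower and 18.5% higher, they were 22 and 2. At an unadjusted p under 0.05, 2 were higher. Their median difference was -0.60, against -0.07 over all genes. Ift122, a core subunit of the retrograde transport complex, fell by 2.21 ± 0.32 log2 (SE, limma, adjusted p = 0.00174). B9d1, of the transition zone at the cilium base, fell by 1.72 ± 0.25 (adjusted p = 0.00181), and Bbs7, another BBSome subunit, by 1.38 ± 0.33 (adjusted p = 0.0155). At 6 h Ift122 and B9d1 stood at -0.88 and -0.65 and Bbs7 at 0.67, all past the limit for members.

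**Figure D3:**
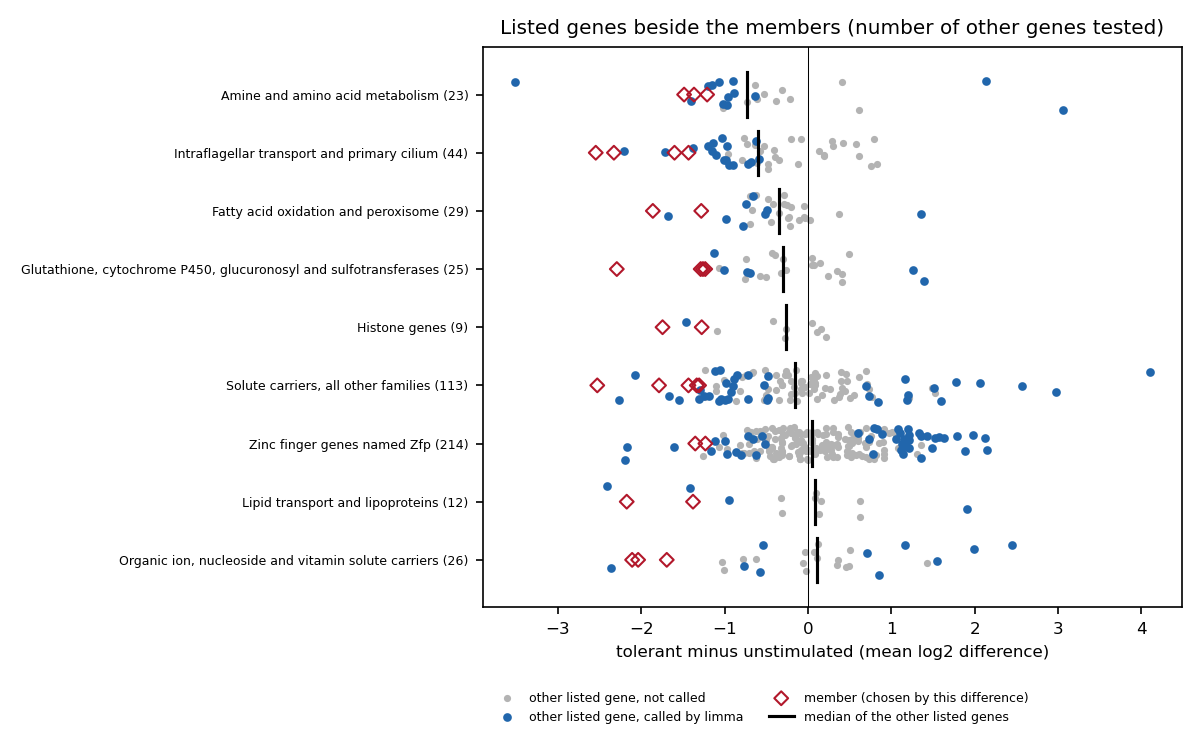
Tolerant minus unstimulated log2 differences for the genes of the 9 lists that hold at least 2 members, with the number of other tested genes in brackets. Red diamonds are members, which had to lie at -1.2 or lower, blue points are other genes called by limma, grey points are not called, and bars mark the median of the other genes, lowest for amine and amino acid metabolism at -0.74 and cilium genes at -0.60.

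Regulators of the cytoskeleton supplied 11 members with a median of -1.68. Kif12, a kinesin found in kidney, liver and gut epithelium, read 5.97, 4.28 and 4.999 on the tolerant arrays, 8.62, 7.60 and 7.60 on the 6 h LPS arrays and 8.78, 7.62 and 7.80 on the unstimulated arrays. It was 7.91-fold lower in tolerant cells, and its lowest value there belonged to replicate 2. Arhgap24, which switches off the small GTPase Rac, read 6.15, 6.52 and 6.43 on the tolerant arrays, 9.18, 9.02 and 9.39 on the 6 h LPS arrays and 9.72, 9.07 and 9.10 on the unstimulated arrays. This is 7.62-fold lower on the probe set used and -1.84 log2 on another probe set of the gene. Fhod3, a formin that builds actin filaments, read 7.82, 8.24 and 8.33 on the tolerant arrays, 9.25, 9.42 and 9.94 on the 6 h LPS arrays and 10.02, 10.02 and 9.95 on the unstimulated arrays. In these 3 genes no tolerant array reached the level of any other array.

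Srgap1, a further GTPase-activating protein, differed by -1.83, Mcf2l, a guanine nucleotide exchange factor, by -1.71 with 2 tolerant arrays below log2 4, and Gas2, which links actin and microtubules, by -1.68. Svbp, the partner of the tubulin tyrosine carboxypeptidases, Csrp2, Sh3yl1, Tbccd1 and Sh3pxd2a, a scaffold of podosomes, ranged from -1.47 to -1.203.

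Adhesion, matrix and cell-surface genes numbered 15, with a median of -1.70. Pcolce2, a secreted enhancer of procollagen processing, read 2.77, 2.88 and 2.58 on the tolerant arrays, 4.997, 4.998 and 5.68 on the 6 h LPS arrays and 5.49, 6.06 and 5.46 on the unstimulated arrays. Tolerant values were all near the floor, and the level was at least 3.19-fold lower. Ildr2, an immunoglobulin-domain membrane protein, read 3.78, 4.46 and 4.999 on the tolerant arrays, 6.26, 6.45 and 7.03 on the 6 h LPS arrays and 6.60, 6.46 and 6.44 on the unstimulated arrays. Ccn4, a matricellular protein of the Wnt pathway, read 3.46, 3.63 and 4.26 on the tolerant arrays, 5.83, 6.44 and 5.76 on the 6 h LPS arrays and 5.78, 6.04 and 5.52 on the unstimulated arrays. Neither gene had a tolerant array as high as any array of the other conditions.

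L1cam and Ncam1, adhesion molecules best known from neurons, differed by -1.95 and -1.86, and their other probe sets by -1.60 for L1cam and -2.15 and -1.28 for Ncam1. Slitrk1, a further neuronal surface protein, differed by -1.91. The remaining 9 were Col4a4, a basement membrane collagen chain, Dag1, the dystroglycan core that binds laminin, Tns1 and Rsu1, which act at focal adhesions, Arvcf, a catenin, and Epdr1, Igsf11, Sema3b and Clstn2, with differences of -1.81 to -1.23. Ncam1, Col4a4, Ccn4 and Slitrk1 were above unstimulated cells at 6 h, by 0.22 to 0.28.

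Transporters, channels and endocytic receptors formed a group of 22 with a median of -1.56. Sfxn2, a carrier of the mitochondrial inner membrane, read 3.74, 4.54 and 4.97 on the tolerant arrays, 6.62, 6.67 and 6.92 on the 6 h LPS arrays and 7.09, 6.89 and 6.94 on the unstimulated arrays. It was 5.88-fold lower, with 1 tolerant array below log2 4. Slc4a2, the chloride and bicarbonate exchanger AE2, read 5.91, 4.95 and 4.94 on the tolerant arrays, 9.10, 6.84 and 6.84 on the 6 h LPS arrays and 9.01, 7.10 and 7.29 on the unstimulated arrays, or 5.77-fold lower. Replicate 1 was the highest Slc4a2 array in each condition, and still the 3 tolerant arrays lay below all others. Abcc10, a drug efflux pump, read 2.61, 3.61 and 4.20 on the tolerant arrays, 4.17, 5.59 and 5.94 on the 6 h LPS arrays and 4.89, 6.33 and 5.76 on the unstimulated arrays. Its highest tolerant array was above its lowest 6 h array, so these conditions overlapped.

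Lrp2, the scavenging receptor megalin of absorptive epithelia, averaged 7.88 ± 0.16 in tolerant, 9.87 ± 0.22 in 6 h LPS and 10.06 ± 0.18 in unstimulated cells (log2, SD, n = 3) and was 4.51-fold lower in tolerant cells. Slc29a3, a lysosomal nucleoside carrier, differed by -2.11. Amino acid carriers among the members were Slc16a10 for aromatic amino acids (-2.04, and -2.46 on another probe set), Slc7a5 for large neutral ones (-1.79), the proton-coupled lysosomal Slc36a1 (-1.33) and the taurine carrier Slc6a6 (-1.31). The other Slc16a10 set stood at -0.61 already at 6 h, past the limit for members. Slc22a5, which takes up carnitine, differed by -1.69 and Slc35b4, a nucleotide sugar carrier of the Golgi, by -1.74. The others, among them the vacuolar proton pump subunit Atp6v0d1, the calcium channel subunit Orai3 and the potassium channel Kcnma1, ranged from -1.70 to -1.25, and Mfsd4b5, at -2.08 with all tolerant arrays below log2 4, was at least 1.76-fold lower.

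Slc16a10, Mfsd4b1 and Mfsd4b5 are consecutive tested genes on chromosome 10. Mfsd4b1 and Mfsd4b5 are related sugar carrier genes, so that their probes could share signal. The 3 genes are transcribed from the minus strand, and their start windows, chr10:40142205-40142504, chr10:40025219-40025518 and chr10:39986597-39986896 in that order, are shown because this is the longest run of neighbouring members. Capitals mark matches on either strand to GGGCGG and, as before, CCAAT, to the TATA box letters TATAAA, and to CACGTG, which E-box factors read.
Slc16a10: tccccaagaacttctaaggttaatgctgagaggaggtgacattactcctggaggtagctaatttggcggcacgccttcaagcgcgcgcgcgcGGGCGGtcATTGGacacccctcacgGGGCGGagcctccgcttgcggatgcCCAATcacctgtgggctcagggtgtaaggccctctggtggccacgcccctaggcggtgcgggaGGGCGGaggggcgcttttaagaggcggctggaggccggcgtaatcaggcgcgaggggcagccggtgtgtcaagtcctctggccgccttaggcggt
Mfsd4b1: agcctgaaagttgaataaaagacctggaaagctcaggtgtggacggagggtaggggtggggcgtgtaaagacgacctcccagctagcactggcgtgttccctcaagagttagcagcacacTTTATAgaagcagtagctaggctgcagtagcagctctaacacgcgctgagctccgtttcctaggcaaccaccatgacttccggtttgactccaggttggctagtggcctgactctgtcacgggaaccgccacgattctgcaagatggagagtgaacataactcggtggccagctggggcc
Mfsd4b5: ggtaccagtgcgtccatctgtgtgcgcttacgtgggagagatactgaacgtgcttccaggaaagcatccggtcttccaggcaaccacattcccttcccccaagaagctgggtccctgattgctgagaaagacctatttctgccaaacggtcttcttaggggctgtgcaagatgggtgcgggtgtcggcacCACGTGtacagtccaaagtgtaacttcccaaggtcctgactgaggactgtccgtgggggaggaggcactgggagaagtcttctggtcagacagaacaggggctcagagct

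These windows share no motif of those searched, since Slc16a10 holds GGGCGG and CCAAT, Mfsd4b1 the TATAAA letters on the opposite strand and Mfsd4b5 CACGTG. Slc16a10 read 4.18, 4.02 and 4.92 on the tolerant arrays, 6.50, 6.28 and 6.45 on the 6 h LPS arrays and 6.88, 6.32 and 6.03 on the unstimulated arrays. Mfsd4b1 read 8.50, 8.99 and 9.09 on the tolerant arrays, 9.26, 9.996 and 10.30 on the 6 h LPS arrays and 9.97, 10.28 and 10.47 on the unstimulated arrays, on a scale of its own probe set. In both genes the tolerant arrays lay below the rest.

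Of 113 other solute carriers tested, with a median of -0.15, limma called 25 (22.1%) lower and 13 (11.5%) higher in tolerant cells. The shares of all tested genes were 12.2% and 14.0%. With the replicate block 41 (36.3%) were lower and 25 (22.1%) higher, against 25.9% and 22.7% of all genes. Slc5a3, the sodium-coupled inositol carrier, was higher by 2.97 ± 0.22 (limma, adjusted p = 9.98e-05). Slc5a10 lay at 7.12 to 8.18 on the tolerant arrays and below log2 4 on all others, so that it was tested through its tolerant arrays alone, and its bound of at least 11.6-fold higher is given as a description. In the list of organic ion, nucleoside and vitamin carriers, 4 of 26 others (15.4%) were lower and 6 (23.1%) higher, near the 12.2% lower of all genes, and with the block 8 (30.8%) were lower and 8 higher, near the 25.9% lower. Slc46a1, the proton-coupled folate carrier of the gut, fell by 2.36 ± 0.43 (adjusted p = 0.00508), and Slco4a1 rose by 2.45 ± 0.34 (adjusted p = 0.00154).

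Amino acid and cofactor metabolism supplied 18 members with a median of -1.40. Ggh, which removes glutamate tails from folates, read 3.42, 4.15 and 4.17 on the tolerant arrays, 5.97, 6.20 and 6.61 on the 6 h LPS arrays and 5.97, 6.37 and 6.18 on the unstimulated arrays. Aadat, an aminotransferase of the kynurenine and lysine pathways, read 5.004, 5.51 and 5.64 on the tolerant arrays, 6.88, 7.51 and 7.78 on the 6 h LPS arrays and 7.43, 7.74 and 7.70 on the unstimulated arrays. Apip, an enzyme of methionine salvage, read 6.01, 6.41 and 6.30 on the tolerant arrays, 7.62, 8.05 and 8.43 on the 6 h LPS arrays and 7.97, 8.28 and 8.26 on the unstimulated arrays. Every tolerant value of these 3 genes lay below the other 6 arrays. The levels were 4.80-, 4.73- and 3.80-fold lower, with 1 tolerant Ggh array below log2 4.

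Keg1, a glycine acyltransferase-like gene, differed by -1.80, Adhfe1, which oxidises hydroxybutyrate, by -1.62 and Aldh4a1, of proline breakdown, by -1.49. On another probe set Adhfe1 differed by only -0.28. Tetrahydrobiopterin, the cofactor of the aromatic amino acid hydroxylases, is made by Gch1 and Pts and recycled by Qdpr, and Dnajc12 chaperones the hydroxylases. Pts read 4.68, 6.16 and 6.45 on the tolerant arrays, 6.67, 7.57 and 7.61 on the 6 h LPS arrays and 6.43, 7.53 and 7.42 on the unstimulated arrays. Qdpr read 10.14, 10.98 and 11.13 on the tolerant arrays, 10.74, 11.93 and 12.07 on the 6 h LPS arrays and 11.44, 12.21 and 12.23 on the unstimulated arrays. In both genes replicate 1 was the lowest array of each condition, and Pts overlapped between tolerant and unstimulated arrays while Qdpr overlapped between tolerant and 6 h arrays. Dnajc12 lay below log2 4 on all tolerant arrays and was at least 1.10-fold lower.

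Glutamine synthetase, Glul, averaged 9.44 ± 0.23 in tolerant, 10.69 ± 0.16 in 6 h LPS and 10.80 ± 0.14 in unstimulated cells (log2, SD, n = 3). Psph, the last enzyme of serine synthesis, averaged 9.83 ± 0.15 in tolerant, 10.93 ± 0.10 in 6 h LPS and 11.12 ± 0.14 in unstimulated cells (log2, SD, n = 3). Both were among the abundant members, and on the probe sets used their tolerant arrays lay apart from the rest. A further Glul probe set differed by only -0.88 in tolerant cells and by -0.77 already at 6 h, past the limit for members. The small change of Glul at 6 h thus rests on the set used. Csad, which makes taurine from cysteine, Mccc2, of leucine breakdown, Chdh, of choline oxidation, D2hgdh, Mocs3, of the molybdenum cofactor, Thnsl2, and Cd320, the receptor for vitamin B12 bound to its carrier, ranged from -1.48 to -1.26.

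Among 23 other tested genes of a list of amine and amino acid metabolism, limma called 11 (47.8%) lower and 2 (8.7%) higher. Their median difference was -0.74. Of all tested genes 12.2% were lower and 14.0% higher. The list counts became 16 (69.6%) and 3 with the replicate block, where 25.9% of all genes were lower and 22.7% higher. Ddc, the aromatic amino acid decarboxylase, fell by 3.52 ± 0.32 (SE, limma, adjusted p = 0.000225) and stood at -0.73 at 6 h. Gch1 went the other way, at 8.51, 7.23 and 6.84 on the tolerant arrays, 4.94, 4.07 and 3.99 on the 6 h LPS arrays and 5.35, 3.94 and 4.10 on the unstimulated arrays. It rose by 3.06 ± 0.51 (adjusted p = 0.00328), so that the first gene of tetrahydrobiopterin synthesis was higher while Pts and Qdpr were members. Arg2, the mitochondrial arginase, rose by 2.13 ± 0.15 (adjusted p = 9.53e-05).

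Genes of fatty acids, peroxisomes and other lipids numbered 15, with a median of -1.38. Phyhipl, named for its likeness to an interactor of phytanoyl-CoA hydroxylase, read 5.02, 6.90 and 7.25 on the tolerant arrays, 7.29, 8.85 and 9.32 on the 6 h LPS arrays and 8.01, 9.19 and 9.14 on the unstimulated arrays. It was 5.25-fold lower, and a further probe set gave -2.34. Spring1, needed for processing of the sterol regulator SREBP, read 3.87, 3.71 and 3.47 on the tolerant arrays, 5.73, 5.08 and 4.91 on the 6 h LPS arrays and 6.28, 5.34 and 5.18 on the unstimulated arrays and was at least 3.03-fold lower. Dhrs4, a peroxisomal reductase, read 8.36, 8.46 and 8.41 on the tolerant arrays, 9.48, 9.95 and 10.11 on the 6 h LPS arrays and 10.22, 10.33 and 10.27 on the unstimulated arrays. In all 3 genes the tolerant arrays lay below the other 6, for Phyhipl by a narrow margin to replicate 1 of 6 h LPS cells.

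Hacl1, which cleaves 2-hydroxy fatty acids in the peroxisome, averaged 6.92 ± 0.13 in tolerant, 8.49 ± 0.15 in 6 h LPS and 8.78 ± 0.04 in unstimulated cells (log2, SD, n = 3). Cpt1a, which commits fatty acids to import into mitochondria by joining them to carnitine, averaged 9.36 ± 0.04 in tolerant, 10.45 ± 0.09 in 6 h LPS and 10.64 ± 0.01 in unstimulated cells (log2, SD, n = 3). The spread of Cpt1a within each condition was small, and the tolerant arrays lay about a full log2 unit below the others. Its further probe sets gave -1.21 and -1.07, and the set at -1.21 stood at -0.59 already at 6 h, past the limit for members. Hacd4 and Pecr, which act in the elongation of long chains, Fabp5, a fatty acid binding protein, Cds1, Smpd2, Pafah2 and Pnpla7, enzymes of phospholipids, and Nudt19, a peroxisomal coenzyme A hydrolase, ranged from -1.68 to -1.22. Pld1, a phospholipase D, and Cyp4f16, a cytochrome P450, had all tolerant arrays below log2 4 and were at least 2.04-fold and 2.19-fold lower.

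Of 29 other tested genes for fatty acid oxidation and peroxisomes, limma called 7 (24.1%) lower and 1 (3.45%) higher, with a median of -0.35. The shares of all tested genes were 12.2% and 14.0%. With the replicate block 12 (41.4%) were lower and 1 higher, against 25.9% and 22.7% of all genes. Amacr, the racemase for branched-chain acids, fell by 1.68 ± 0.16 (SE, limma, adjusted p = 0.000275) and missed the limit for members at 6 h, where it stood at -0.504. Phyh, phytanoyl-CoA hydroxylase, fell by 0.99 ± 0.27 (adjusted p = 0.0275), while Acox2, the oxidase of the branched chains, rose by 1.36 ± 0.33 (adjusted p = 0.0178). Among 12 other genes of lipid transport, beside the members Lrp2 and Fabp5, limma called 3 (25%) lower and 1 (8.33%) higher. With the block 4 (33.3%) were lower and 2 (16.7%) higher. Dgat2, which makes triglyceride, fell by 2.41 ± 0.25 (adjusted p = 0.000371), and Apoc2, an activator of lipoprotein lipase, rose by 1.91 ± 0.19 (adjusted p = 0.000357).

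Heme, redox and conjugation genes numbered 8, with a median of -1.61. Hmox1, the inducible heme oxygenase, read 5.39, 4.76 and 4.28 on the tolerant arrays, 7.92, 7.22 and 6.68 on the 6 h LPS arrays and 7.56, 7.41 and 6.33 on the unstimulated arrays. It was 4.90-fold lower in tolerant cells, below every other array. Blvra, which reduces the biliverdin that Hmox1 makes, averaged 8.72 ± 0.29 in tolerant, 10.17 ± 0.15 in 6 h LPS and 10.37 ± 0.15 in unstimulated cells (log2, SD, n = 3). Uros, an enzyme of heme synthesis, read 3.40, 3.61 and 4.18 on the tolerant arrays, 5.27, 5.78 and 5.61 on the 6 h LPS arrays and 5.25, 6.11 and 5.57 on the unstimulated arrays. Gpx8, a peroxidase of the endoplasmic reticulum, read 4.53, 5.50 and 5.24 on the tolerant arrays, 6.72, 7.52 and 7.40 on the 6 h LPS arrays and 6.76, 7.23 and 7.15 on the unstimulated arrays. Their tolerant arrays lay apart too, with 2 Uros arrays below log2 4.

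Nqo2, a quinone reductase, differed by -1.56 on the probe set used but by -0.25 on another. Msrb3, which repairs oxidised methionine, Sult1c2, a sulfotransferase, and Gsta4, which conjugates hydroxynonenal, differed by -1.51, -1.26 and -1.23, and Sult1c2 overlapped between tolerant and 6 h arrays. Limma called 4 of 25 other genes (16%) of a list of glutathione, cytochrome P450 and conjugating enzymes lower and 2 (8%) higher. The shares of all tested genes were 12.2% and 14.0%. With the block 10 (40%) were lower and 5 (20%) higher, against 25.9% and 22.7% of all genes. Mgst1, a microsomal glutathione transferase, fell by 1.12 ± 0.24 (adjusted p = 0.00968). Both genes called higher, Cyp3a13 and Sult1a1, reached log2 4 on tolerant arrays alone, without which they would not have been tested, and their bounds of at least 1.44-fold and 1.56-fold higher are a description.

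Signalling, nutrient-sensing and immune genes numbered 19, with a median of -1.40. Sgk2, a kinase related to the insulin-responsive Akt family, read 3.14, 3.17 and 2.47 on the tolerant arrays, 5.55, 6.38 and 6.57 on the 6 h LPS arrays and 6.47, 6.62 and 6.76 on the unstimulated arrays. Its tolerant arrays were all below log2 4, and it is given as at least 6.12-fold lower. Csf1r, the receptor for macrophage colony-stimulating factor, read 7.97, 9.25 and 9.30 on the tolerant arrays, 9.35, 10.62 and 10.98 on the 6 h LPS arrays and 10.10, 11.06 and 11.20 on the unstimulated arrays. It was 3.85-fold lower, and its other probe sets gave -2.11 and -1.66. The Csf1r set at -2.11 stood at -0.61 already at 6 h, past the limit for members. Pkia, an inhibitor of protein kinase A, read 4.60, 4.69 and 5.18 on the tolerant arrays, 6.02, 7.11 and 7.14 on the 6 h LPS arrays and 6.33, 6.33 and 6.71 on the unstimulated arrays. Tolerant arrays of all 3 genes lay below every other array, though the highest of Csf1r was close to replicate 1 of 6 h LPS cells.

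Csf1r is also a leukocyte marker, and 9 such markers were on the array. Ptprc, Itgam, Adgre1, Lyz2 and Cd3e lay below log2 4 on all 9 arrays. Spi1 averaged 3.10 in tolerant, 4.29 in 6 h LPS and 4.95 in unstimulated cells, and Cd68 moved the other way, at 9.67, 5.11 and 5.52 in that order. Cd14, the LPS co-receptor, averaged 8.05 in tolerant, 8.14 in 6 h LPS and 7.53 in unstimulated cells. The log2 of the summed marker intensities was 10.4 to 10.8 on tolerant, 9.87 to 11.3 on 6 h LPS and 10.5 to 11.4 on unstimulated arrays. This sum holds Csf1r itself, and without it was 10.1 to 10.2 on tolerant, 8.15 to 8.91 on 6 h LPS and 8.03 to 8.31 on unstimulated arrays, most of it from Cd68 and Cd14. The part of such cells in the Csf1r values was not tested.

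Ifit1bl1, of the interferon-induced Ifit family whose members resemble each other, was at least 1.91-fold lower, Map3k7cl at least 2.07-fold and Plcb1, a phospholipase C, at least 1.58-fold. Map3k7cl read 3.96, 2.81 and 3.68 on the tolerant arrays, 7.82, 4.25 and 4.44 on the 6 h LPS arrays and 5.48, 5.05 and 4.63 on the unstimulated arrays. A single 6 h array, replicate 1, was far above its other values. Among the remaining members Sesn1, Castor2, Nprl3 and Itfg2 belong to the circuits that report amino acids to the kinase mTORC1, and Prkag1 is a subunit of the energy sensor AMPK. Sesn1, Castor2, Nprl3 and Prkag1 differed by -1.53, -1.22, -1.32 and -1.24 in that order, Itfg2 was at least 1.51-fold lower, and Sesn1 and Nprl3 overlapped with 6 h arrays. Fzd6, a Wnt receptor, Rnf135, a ubiquitin ligase of the RIG-I pathway, Lgals9, a galectin, Casp6, a caspase, Ackr4, a chemokine scavenger, and the phosphatases Ppm1h and Ppm1l ranged from -1.53 to -1.22. Ctf1, a cytokine, was at least 1.93-fold lower.

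Vesicle traffic, lysosome, endoplasmic reticulum and glycosylation genes numbered 22, with a median of -1.41. Dpp7, a dipeptidyl peptidase of vesicles, read 6.03, 5.13 and 5.36 on the tolerant arrays, 7.16, 7.07 and 7.30 on the 6 h LPS arrays and 8.16, 7.20 and 7.22 on the unstimulated arrays. Vps33a, of the HOPS complex that fuses lysosomes, read 5.01, 4.46 and 4.59 on the tolerant arrays, 6.49, 6.17 and 6.34 on the 6 h LPS arrays and 6.94, 6.68 and 6.16 on the unstimulated arrays. Eps15l1, an adaptor of clathrin pits, read 5.61, 5.74 and 5.65 on the tolerant arrays, 7.07, 7.26 and 7.31 on the 6 h LPS arrays and 7.34, 7.39 and 7.30 on the unstimulated arrays. The tolerant arrays lay below all others, at 4.06-, 3.75- and 3.20-fold lower levels, although a further Eps15l1 probe set gave -0.53.

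Wdr41, a partner of C9orf72, differed by -1.67, B3glct, a glucosyltransferase for secreted proteins, by -1.62, and Cnst, which guides connexins to the membrane, had all 3 tolerant arrays below log2 4, against a mean of 5.14 in unstimulated cells. The adaptor subunits Ap5z1 and Ap3s2, the small GTPase Rab31, Dennd1a and Tbck, of families that regulate such GTPases, and the lysosomal hydrolase Sgsh ranged from -1.51 to -1.25. Factors of the endoplasmic reticulum and Golgi were Sel1l, a scaffold of protein degradation, Sdf2l1, Tram2, Ubxn8 and the glycosylation enzymes Alg12 and Galnt4, at -1.44 to -1.22, and Glb1l, Wdr81, Pyurf and Yipf2 lay within the same range. Sel1l rests on 1 probe set, since its 4 others gave -0.81, -0.41, -0.20 and 0.09.

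Mitochondrial assembly and carbohydrate or nucleotide enzymes numbered 9, with a median of -1.30. Mcur1, a regulator of mitochondrial calcium uptake, read 6.86, 7.82 and 7.37 on the tolerant arrays, 8.71, 9.17 and 9.32 on the 6 h LPS arrays and 8.84, 9.22 and 9.26 on the unstimulated arrays. Gnpda1, which turns glucosamine phosphate back to fructose phosphate, read 6.54, 6.29 and 6.12 on the tolerant arrays, 7.89, 7.09 and 7.24 on the 6 h LPS arrays and 8.15, 7.78 and 7.34 on the unstimulated arrays. Cox20, a chaperone of cytochrome oxidase, read 6.69, 7.32 and 7.37 on the tolerant arrays, 8.80, 8.40 and 8.57 on the 6 h LPS arrays and 8.32, 8.34 and 8.79 on the unstimulated arrays. All tolerant arrays of these genes lay below the rest. Lyrm2, Gatb, which charges glutamine tRNA in mitochondria, and Ak1, an adenylate kinase, differed by -1.32, -1.30 and -1.27, and Ak1 overlapped between conditions. Smim4, Dera and Msto1 lay between -1.26 and -1.22.

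RNA processing and ribosome biogenesis supplied 10 members, with a median of -1.45. Wdr6, a partner in transfer RNA methylation, read 8.44, 9.02 and 9.20 on the tolerant arrays, 10.28, 10.47 and 10.85 on the 6 h LPS arrays and 10.51, 11.12 and 11.04 on the unstimulated arrays. Rexo2, which degrades short RNA in mitochondria, read 7.12, 6.88 and 6.87 on the tolerant arrays, 8.80, 8.42 and 8.83 on the 6 h LPS arrays and 9.07, 8.79 and 8.92 on the unstimulated arrays. Mettl8, a methyltransferase of mitochondrial transfer RNA, read 3.89, 3.67 and 3.83 on the tolerant arrays, 4.94, 5.21 and 5.62 on the 6 h LPS arrays and 6.13, 5.58 and 5.10 on the unstimulated arrays. No tolerant array of these genes overlapped with another condition, and Mettl8 was at least 3.04-fold lower. Rrp12 and Bop1 of ribosome assembly, Thg1l and Lcmt2 of transfer RNA modification, Pop1, a subunit of the RNase P and MRP enzymes, Ncbp2, of the cap-binding complex, and Wtap, of the N6-methyladenosine writer, ranged from -1.73 to -1.21. The other Wtap probe set gave 0.14, so the direction rests on the set used.

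Transcription, chromatin and DNA repair genes numbered 19, with a median of -1.42. Tspyl4, of the nucleosome assembly protein family, read 3.08, 3.36 and 3.55 on the tolerant arrays, 5.70, 6.13 and 6.93 on the 6 h LPS arrays and 6.52, 6.67 and 6.30 on the unstimulated arrays. It was at least 5.63-fold lower. Ssbp3, a cofactor of LIM-homeodomain factors, read 4.53, 5.23 and 4.71 on the tolerant arrays, 6.43, 6.28 and 6.85 on the 6 h LPS arrays and 7.05, 6.98 and 6.78 on the unstimulated arrays, yet another probe set gave -0.42. Polr2a, the largest subunit of RNA polymerase II, read 6.16, 5.97 and 6.01 on the tolerant arrays, 8.93, 7.11 and 7.44 on the 6 h LPS arrays and 8.46, 7.53 and 7.68 on the unstimulated arrays. The tolerant arrays of all 3 lay below every other array.

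H1f2, a linker histone, differed by -1.74, with -1.71 on a further probe set. Prmt6, an arginine methyltransferase, differed by -1.69, but its other probe set gave 0.77, and Dido1 likewise had -1.26 against 0.13 and 0.34 on its other sets. Sall2, Zhx3, Atf5, Creb3, Hoxd9, Nfyc, Zfp647 and Zfp512b are transcription factors or zinc finger proteins, Polr3b is a core subunit of RNA polymerase III, Eme2 and Chd1l act in DNA repair, and H2aw is a histone, with differences of -1.59 to -1.23, the last of these in Eid1, a binder of the p300 acetyltransferase. Of 214 other tested genes named Zfp, limma called 14 (6.54%) lower and 32 (15.0%) higher, with a median of 0.05. The shares of all tested genes were 12.2% and 14.0%. With the block 36 (16.8%) were lower and 57 (26.6%) higher, against 25.9% and 22.7% of all genes. Of 9 other histone genes 1 (11.1%) was called lower by limma, H2ac19, by 1.46 ± 0.21 (adjusted p = 0.00192), and 0 higher. With the block 3 (33.3%) were lower and 0 higher, and 0 were higher at an unadjusted p under 0.05. These shares lie near those of all genes for lower calls.

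Ubiquitin and proteolysis genes numbered 9, with a median of -1.52. Klhl14, an adaptor of cullin ligases, read 2.74, 2.73 and 2.90 on the tolerant arrays, 5.23, 5.59 and 5.44 on the 6 h LPS arrays and 5.51, 5.03 and 5.12 on the unstimulated arrays and was at least 2.33-fold lower. Asb13, a further cullin adaptor, read 5.25, 5.54 and 6.12 on the tolerant arrays, 6.96, 7.72 and 7.83 on the 6 h LPS arrays and 7.55, 7.65 and 7.72 on the unstimulated arrays. Marchf9, a membrane-bound ligase, read 5.68, 4.62 and 4.81 on the tolerant arrays, 7.17, 5.72 and 6.15 on the 6 h LPS arrays and 7.10, 6.41 and 6.37 on the unstimulated arrays. Tolerant arrays lay below the others in each, though for Marchf9 by a narrow margin between replicate 1 of tolerant cells and replicate 2 of 6 h LPS cells. The deubiquitinases Usp20 and Usp46, the calpain Capn10, Fbxo9, and Cela1, a pancreatic-type elastase, lay between -1.56 and -1.23, and Wdsub1 was at least 1.77-fold lower. Of the 30 members not placed in a group, Tmem254a, Tmem62 and Snn differed by -2.53, -1.98 and -1.54, and Tmem42 and Zc4h2 were at least 2.88-fold and 3.07-fold lower, with bounds of 1.36- to 2.400-fold for the other 7 with no tolerant array at log2 4.

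The word only, as applied to the tolerant state, holds within the limit on the mean at 6 h and no further. At 6 h minus unstimulated, 182 of 219 members (83.1%) were below 0, with a median of -0.26. Among all 6676 tested genes inside the same limits at 6 h, 63.6% were below 0 and the median was -0.11. In all 3 same-numbered pairs 81 members (37.0%) were lower at 6 h, against 27.7% of those 6676 genes. Of 382 genes that met both tolerant limits, 219 were members, 159 were at -0.5 or lower at 6 h and 4 at 0.5 or higher. Every tolerant array lay below every 6 h array for 201 members, where 15.4% of all tested genes had this order, and 18 members did not have it. The limits set the tolerant mean of each member below its 6 h mean, so this order is no separate result.

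Members near the limits show how little separates them from genes left out. On the tolerant mean Sh3pxd2a was inside at -1.203, and 1600014C10Rik outside at -1.199. At 6 h the member Csrp2 stood at -0.4997 and Amacr, no member, at -0.504. On the single pairs Wdsub1, with its highest pair at -0.808, was inside, and Lipg, at -0.799, was outside.

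The choice was repeated with each replicate number left out, and the arrays of that number, which then had no part in it, were read. With number 1 left out, 216 genes were chosen, 157 of them members, and in pair 1 their tolerant minus unstimulated median was -1.67, with 214 (99.1%) below -0.8, against 16.3% of all genes. With number 2 left out, 264 were chosen, 197 of them members, and 252 (95.5%) were below -0.8 in pair 2, with a median of -1.40, against 12.01% of all genes. With number 3 left out, 205 were chosen, 140 of them members, and 176 (85.9%) were below -0.8 in pair 3, with a median of -1.21, against 9.47% of all genes. The fall in tolerant cells thus recurred in arrays that had not chosen the genes.

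The small change at 6 h recurred less. In the pair left out, the 6 h difference lay within 0.5 of 0 in 49.1% of the re-chosen genes for number 1, 58.7% for number 2 and 90.7% for number 3, against 52.7%, 58.2% and 88.8% of all genes. In pairs 1 and 2 the re-chosen genes had 6 h medians of -0.47 and -0.38, and 102 and 103 of them were at -0.5 or lower, while in pair 3 the median was 0.02 and 5 were. The shares inside the limit were thus near those of all genes in each pair.

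**Figure D4:**
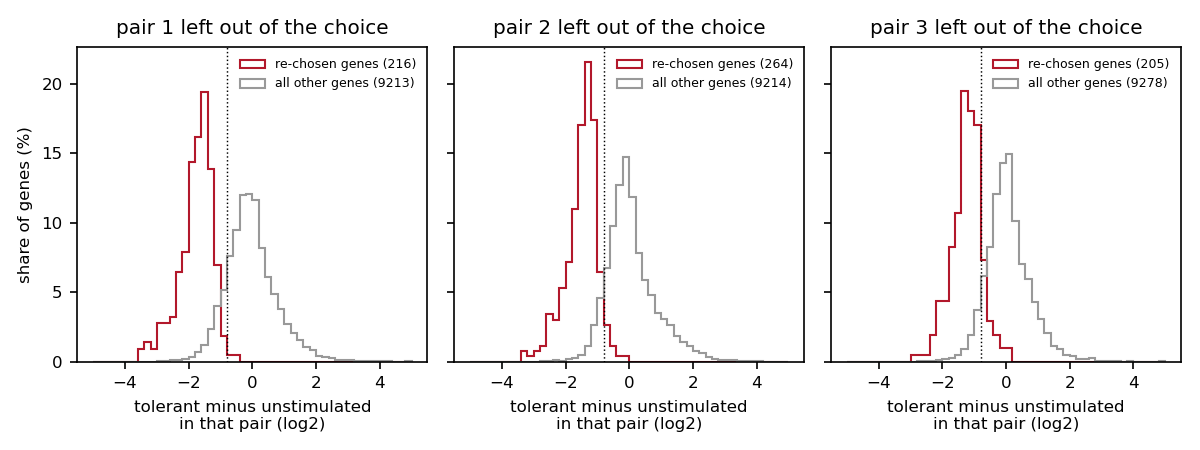
Tolerant minus unstimulated log2 difference in 1 pair of arrays for genes re-chosen from the other pairs (red) and all other genes (grey), as a share of each set in bins, with the dotted line at -0.8. The medians of the re-chosen genes were -1.67, -1.40 and -1.21 in pairs 1, 2 and 3.

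A further 106 probe sets of 78 members reached log2 4 on at least 3 arrays and had no part in the choice, although they were read on the same arrays. Of these 97 were lower in all 3 tolerant and unstimulated pairs, and 51 (48.1%) were at -1.2 or lower, against 3.17% of 7219 such probe sets of all genes. All limits that chose the members, that at 6 h included, were met by 40 of the 106. Their median was -1.18, against -1.43 for the sets used of the same members, and they ranged from -2.46 for Slc16a10 to 0.77 for Prmt6. In 9 members 12 of these sets were above -0.5, namely in Ssbp3, Kcnma1, Adhfe1, Nqo2, Sel1l, Ap3s2, Dido1, Wtap and Prmt6.

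**Figure D5:**
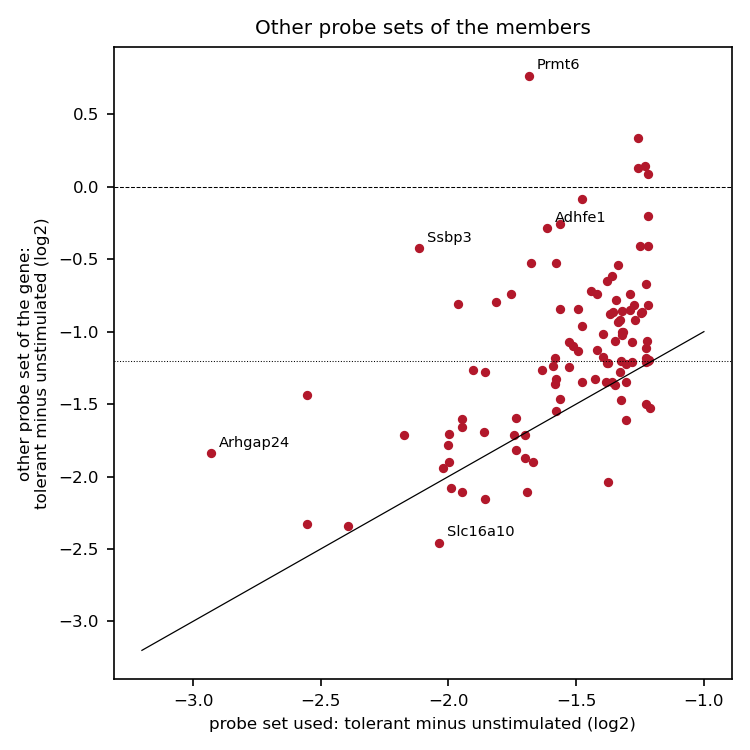
Tolerant minus unstimulated log2 difference of the probe set that represented a member (x axis) and of each further probe set of that gene (y axis), for 106 sets of 78 members. The line marks equal values, the dotted line -1.2 and the dashed line 0, with 51 points at or below the dotted line and Prmt6 highest at 0.77.

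Along the genome the members were spread over 20 chromosomes, from 0.749% of the tested genes on chromosome X to 3.89% on chromosome 10. Members had 299 adjacent tested genes less than 100000 bases away, where a gene next to several members counts once for each. Of these 12 (4.01%) were members, against 2.32% of all tested genes, and they came from 6 pairs of 11 distinct members. Besides the pairs and the run shown above, Gatb and Fam160a1 on chromosome 3 and Focad and Hacd4 on chromosome 4 were neighbours, and the annotated Focad and Hacd4 overlap by 3325 bases. In the 176 start windows the median GC content was 61.2%, against 61.7% for the tested genes. Searched on both strands, TATAAA was held by 6.82% of the members' windows and 6.45% of all, CCAAT by 35.2% and 38.8%, CACGTG by 12.5% and 10.7%, and TGACGTCA by 2.84% and 3.49%. TGANTCA, the AP-1 type letters, was in 2.27% and 4.58%, and GGGANTTCC, of the NF-kappaB type, in 1.14% and 2.39%. CAAAGTCCA and GTTAATNAT were each in 0.568% of the members' windows, against 0.296% and 0.348%.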

How the data were processed

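Total RNA of 9 cultures was hybridised to Affymetrix mouse arrays. Intensity per probe set was deposited on a linear scale. Per the submitters' processing notes the tool was GCRMA, with the version not given in the sources used here. It models background from probe sequence and normalizes between arrays. Low values crowd below log2 4, and the lowest value on each array was 2.22 to 2.25 (linear). Log2 was taken with no pseudocount added. The arrays hold 45101 probe sets, including 64 controls, and the 34945 with a single gene symbol were used, leaving out 932 with several and 9160 without a listed gene. A gene took the values of its brightest set by the mean of all arrays, and was tested if 3 or more arrays reached log2 4. Array medians over these genes were 7.62 to 7.84 (log2). Precision is limited by the number of arrays.

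Tests were made in R 4.3.3 with limma 3.58.1 (lmFit with 1 mean per condition over all 9 arrays, eBayes, two-sided, Benjamini-Hochberg over all 9431 genes, threshold 0.05). On data simulated for tolerant minus unstimulated over 9431 genes, 33 of 100 genes changed by -1 log2 and 84 of 100 changed by -2 were recovered, with 6.4% false calls. The simulated noise was independent between arrays, with no effect of the replicate number and all other genes unchanged. These rates thus need not hold for the tests on the real arrays. The members, the 31 gene lists and the functional groups were chosen with earlier results of these data known. Members are named by size of difference, up to 6 per group with values, up to 3 of them on every array, and the rest by function, together with those nearest the limits and those whose probe sets disagree. Other listed genes are named by size among those called, up to 3 per list, in the 9 lists with at least 2 members. The 22 lists with fewer are summarised in the closing section, and 1 further list is not reported here. When a replicate number was left out of the choice, the probe set was taken from the remaining arrays alone, with log2 4 or more on at least 2 of them. RefSeq start windows were matched by gene ID for 176 members and not found here for 43. Motif shares and GC content use the window listed first for each gene.

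Same-numbered arrays deviated together. The correlation across genes of their deviations from the condition means was 0.157 to 0.844, between numbers 2 and 3 it was 0.214 to 0.731, and between number 1 and the others -0.743 to -0.375. Every same-numbered pair was thus above 0.1, the rule for pairing, but a replicate 1 that differs from the others would meet this rule too. Values with the number as a block are given beside most counts it moves. Adjusted p-values of single genes come from limma without the block. With the block they were lower, as for Gch1 at 2.52e-05 against 0.00328 without it. Alternatives covered the filter, the choice of probe set, further normalization, a floor, the eBayes settings, the limits of the choice and each array left out. The fit on replicates 2 and 3 alone was added after seeing the data.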

Additional observations from a re-analysis of the deposited data

How the results depend on the processing

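The number of members was 219 and stayed between 154 and 239 under the other filters, probe-set rules, normalization, a floor at log2 4, and without the limit on single pairs. It was 91 with a mean difference of -1.5 or lower and 97 with a 6 h difference below 0.25 in size. Leaving out a replicate number, with the filter and the probe set still taken from all 9 arrays, gave 202 to 263, of which 142 to 198 were among the 219. With the mean of all probe sets of a gene 127 of 154 were, and after quantile normalization 180 of 226. With the replicate block, which uses the same-numbered pairs, limma called 2444 genes lower and 2142 higher in tolerant cells, against 1152 and 1318 without it, and 157 listed non-members lower, against 86. On the arrays of replicates 2 and 3 alone, added after seeing the data, 1859 genes were lower. Leaving out single arrays gave 648 to 1434 lower genes, 752 to 1474 higher genes and 39 to 98 lower listed non-members, with the lowest counts without tolerant replicate 2. Counts under the remaining alternatives stayed within 1.5 times. For 78 named members, 624 differences under other probe-set rules, normalization or a left-out array ran from -3.81 to -0.36. Of these 510 moved by less than the spread between pairs, 114 by more and 0 changed direction, and 36 of the 114 came with the mean over probe sets. The limits that chose the members leave little room for a change of direction. The mean over probe sets also still holds the set used, so the 0 is a description. Array medians and the floor below log2 4 limit what can be said of the 28 members with no tolerant array above it.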

Other observations

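Outside the genes with a symbol of their own, 1807 probe sets reached log2 4 on at least 3 arrays, and 23 of them (1.27%) met the limits that chose the members. Of these, 9 carried several symbols and 14 had no listed gene, and their median tolerant minus unstimulated difference was -1.67, with the lowest at -2.26. With the limits turned round, 220 genes were higher in tolerant cells and within 0.5 log2 of unstimulated cells at 6 h, close in number to the 219 members. In 22 lists of related pathways with 1 member (10 lists) or 0 members (12 lists), limma called more of the other genes higher than lower in 17, more lower than higher in 3 and as many in 2, where 14.0% of all tested genes were higher and 12.2% lower. These lists were set apart because they hold few members, and members are left out of the counts. Both steps leave out lower genes, so this balance is partly set by the choice. Cell cycle inhibitors and p53 targets had 10 higher and 3 lower of 27, the kinesin superfamily 9 and 2 of 24, semaphorins and other axon guidance genes 8 and 3 of 27, and phosphodiesterases, adenylyl cyclases and protein kinase A subunits 8 and 2 of 24. For BMP and TGF-beta signalling 7 of 25 were higher and 0 lower in limma, with 0 lower at an unadjusted p under 0.05 and with the replicate block. Growth factor receptors had 6 of 25 higher and 0 lower, with 2 lower at an unadjusted p under 0.05 and 3 with the block. The 3 lists with more lower genes were the membrane skeleton with 5 lower and 2 higher of 16, carbonyl and retinoid metabolism with 4 and 2 of 23, and lineage transcription factors with 2 and 1 of 7. With the replicate block, where 25.9% of all genes were lower and 22.7% higher, the balance turned in some lists. Glycosyltransferases went from 6 lower and 11 higher of 50 to 17 and 13. Autophagy and lysosome genes went from 3 and 4 of 37 to 11 and 5. Channels went from 2 and 4 of 24 to 5 and 4, and interferon response from 3 and 3 of 25 to 3 and 8.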
